A study of Mus musculus with 18 samples.

Results

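The genes described here are 8 transcripts of the 2-cell-like state, taken by symbol from a table of 56551 genes: Zscan4c, Zscan4d and Zscan4f, the neighbours Tcstv1 and Tcstv3, Zfp352, Usp17lc and Obox6. All 8 were in the table. Of these, 7 reached 1 TPM (transcript abundance scaled for gene length and library total) in at least 3 libraries and were among the 17842 genes tested. Zfp352 did not reach 1 TPM in any library and was tested only without that filter. None of the 8 was at 1 TPM in a WT library, so each of the 7 entered the test through the knockouts in which it was high. The 8 genes were all at or near 0 in WT embryonic stem cells. They were highest in Ring1b-KO, where their levels summed to 74.0 to 75.7 TPM, and in Pcgf-6KO, at 40.1 to 43.7 TPM. The sum was 6.16 to 7.63 TPM in Pcgf-4KO and 1.23 to 2.23 TPM in the Ring1a/b double knockout, against 0.11 to 0.6 TPM in WT. Obox6 made much of the gap in the sum between Ring1b-KO (a mean of 23.9 TPM) and Pcgf-6KO (2.97 TPM). Zscan4d, Zfp352 and Usp17lc had their highest mean in Pcgf-6KO.

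In the mouse, the embryonic genome is first transcribed broadly at the 2-cell stage, when Zscan4 genes, Tcstv genes, Zfp352 and several other gene families and retroviral elements are switched on together. A small and changing fraction of cultured embryonic stem cells passes through a similar state, called 2-cell-like, which the homeobox factor Dux can induce. Polycomb repressive complex 1 (PRC1) ubiquitylates histone H2A and keeps developmental genes silent. Each PRC1 holds a Pcgf protein and either Ring1a, encoded by Ring1, or Ring1b, encoded by Rnf2, as its catalytic subunit. The variant complex built on Pcgf6, with L3mbtl2, Mga, Max and E2f6, is known for silencing germline genes in stem cells.

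RNA was sequenced from mouse embryonic stem cells in 6 groups of 3 libraries: WT, Ring1a-KO, Ring1b-KO, Ring1a/b-dKO (both genes), Pcgf-4KO (Pcgf1, Pcgf3, Pcgf5 and Pcgf6) and Pcgf-6KO (those 4 with Pcgf2 and Pcgf4, the product of Bmi1). The labels give no strain, clone, passage, medium or method of deletion, and leave unsaid if the 3 libraries of each group are separate cultures, so the p-values measure the spread between these libraries. The values are TPM, which hold no read counts, so the depth behind each value is unknown. TPM is scaled for length, so levels can be set side by side between genes.

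The genes named in the knockout labels give 14 tests against WT, of which 7 were called lower and 3 higher. The 3 were Bmi1 in Pcgf-6KO (14.34 to 16.32 TPM against 0.88 to 2.5 TPM in WT) and Pcgf5 in Pcgf-4KO (13.21 to 15.67 TPM) and Pcgf-6KO (21.04 to 23.25 TPM), against 9.01 to 10.12 TPM in WT. Bmi1 and Pcgf5 were also higher in Ring1b-KO and the double knockout, where they are not targets. Rnf2 was at 47.35 to 52.98 TPM in Ring1b-KO and 19.38 to 24.74 TPM in the double knockout, against 65.92 to 76.4 TPM in WT. Ring1 was at 2.74 to 9.4 TPM in the double knockout, a range that spans the WT libraries (7.1 to 7.42 TPM). Pcgf6 was at 0 to 0.1 TPM in Pcgf-4KO and 9.73 to 11.15 TPM in Pcgf-6KO, against 52.8 to 53.3 TPM in WT. Loss of an exon cannot be read from TPM of a whole gene, so the groups are called throughout by their labels. All 10 markers of pluripotent stem cells were tested and at 1 TPM or more in WT, and they summed to 4794 to 4863 TPM there. That sum was highest in Ring1b-KO (7723 to 8375 TPM) and lowest in Pcgf-6KO (1981 to 2410 TPM), the groups with the highest levels of the 8 genes. In Ring1b-KO the sum was carried by Dppa5a (a mean of 4760.83 TPM against 1793.56 TPM in WT), and 5 of the 10 markers were called higher and 5 lower, Sox2 among the latter. In Pcgf-6KO 1 was called higher and 9 lower. Of all genes tested, 34.7% were called higher and 17.1% lower in Ring1b-KO, and 51.7% and 22.5% in Pcgf-6KO. Of 8 markers of feeder fibroblasts 3 were tested, and the summed level of the 8 was 13.6 to 16.4 TPM in WT, 20.7 to 24.6 TPM in Ring1b-KO and 11.6 to 14.3 TPM in Pcgf-6KO. The 3 tested, Thy1, Col1a1 and Pdgfrb, were all called higher in Ring1b-KO, and 1 of them, Pdgfrb, in Pcgf-6KO. With quantile normalization Col1a1 in Ring1b-KO and Pdgfrb in Pcgf-6KO were not called. Dcn and Col1a2, not tested, had means of 0.04 and 0.33 TPM in Ring1b-KO, against 0.71 and 0.57 TPM in WT. Group means of Lum ran from 0 to 0.07 TPM and of Postn from 0.01 to 0.12 TPM, and Thy1 made most of the sum (19.94 TPM of it in Ring1b-KO). The part of these markers in the results was not tested. In RNA from whole cultures, more cells in the 2-cell-like state and more RNA per cell cannot be told apart.

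Zscan4c, Zscan4d and Zscan4f encode SCAN-domain zinc finger proteins known for telomere maintenance in stem cells. They lie within a single cluster on chromosome 7, at 11005745 to 11010547 (plus strand), 11161374 to 11166159 (minus strand) and 11397915 to 11402318 (plus strand) of GRCm38, and all are annotated as protein-coding. The stretch of 250 bases just before the RefSeq start is shown for each, with that of the neighbour Zscan4b, because the copies are nearly the same there. The windows are from RefSeq (GRCm38.p6) at chr7:11005495-11005744 (plus), chr7:11166149-11166398 (minus), chr7:11397665-11397914 (plus) and chr7:10905051-10905300 (minus). The RefSeq start of Zscan4d lies inside the gene as annotated above, so its window includes the outermost bases of that annotation. All are written 5′ to 3′, and capitals mark TATAAA and TGATTCAA, the opening letters of the motif known for Dux.
Zscan4c: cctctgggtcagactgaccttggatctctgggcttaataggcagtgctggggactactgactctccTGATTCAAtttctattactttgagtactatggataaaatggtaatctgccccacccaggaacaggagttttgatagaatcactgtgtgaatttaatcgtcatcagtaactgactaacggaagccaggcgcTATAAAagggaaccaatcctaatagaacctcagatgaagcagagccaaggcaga
Zscan4d: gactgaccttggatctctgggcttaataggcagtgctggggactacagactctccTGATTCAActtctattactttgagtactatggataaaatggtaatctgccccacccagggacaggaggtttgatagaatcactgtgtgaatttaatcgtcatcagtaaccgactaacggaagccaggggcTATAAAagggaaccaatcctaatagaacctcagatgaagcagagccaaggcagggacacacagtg
Zscan4f: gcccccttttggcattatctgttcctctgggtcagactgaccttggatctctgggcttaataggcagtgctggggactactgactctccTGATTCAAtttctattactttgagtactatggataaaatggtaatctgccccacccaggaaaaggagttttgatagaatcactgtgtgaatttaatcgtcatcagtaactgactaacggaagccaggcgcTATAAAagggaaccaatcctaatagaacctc
Zscan4b: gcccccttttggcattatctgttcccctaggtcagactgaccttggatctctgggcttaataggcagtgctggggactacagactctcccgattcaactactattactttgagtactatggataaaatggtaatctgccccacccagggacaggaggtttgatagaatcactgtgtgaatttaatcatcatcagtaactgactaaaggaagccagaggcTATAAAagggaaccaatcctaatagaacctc

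Over the bases that could be aligned, the windows of Zscan4c and Zscan4f were 99.6% identical (226 of 227 bases), those of Zscan4c and Zscan4d 97.5% and those of Zscan4d and Zscan4f 96.8%. TATAAA occurred once in each of the 4 windows, beginning 54, 65, 31 and 31 bases before the start of Zscan4c, Zscan4d, Zscan4f and Zscan4b. TGATTCAA occurred in the windows of Zscan4c, Zscan4d and Zscan4f and not in that of Zscan4b. On either strand, TATAAA was in 12.3% and TGATTCAA in 0.544% of 32536 windows of the same length before RefSeq gene starts. GATTNAATC, the core of the Dux motif, was in 0.231% of all windows, CACGTG, bound by Mga and Max, in 6.04%, and TCCCGC, an E2F core, in 17%, and these letters were not in the windows of the 4 genes. A match to GATTNAATC can overlap one to TGATTCAA. TGATTCAA was picked after the windows had been read, so its presence there is a description.

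Zscan4f was the most abundant of the 3 Zscan4 members. It was listed at 0 in all 3 WT libraries and in Ring1a-KO replicates 1 and 2, with 0.1 TPM in replicate 3. In Ring1b-KO it was at 19.85, 20.59 and 18.93 TPM, and in Pcgf-6KO at 13.29, 12.56 and 16.03 TPM. The double knockout was at 0.54, 0.39 and 0.25 TPM, and Pcgf-4KO at 1.81, 1.95 and 2.48 TPM. The libraries thus fell in the order Ring1b-KO, Pcgf-6KO, Pcgf-4KO, double knockout, with no overlap between neighbours, and Ring1a-KO and WT overlapped at the bottom. Differences are given on the scale of log2(TPM + 1), with SE and a Benjamini-Hochberg adjusted p from limma over all genes tested. They are not folds, because WT is listed at 0. Zscan4f rose against WT by 4.38 ± 0.11 in Ring1b-KO (adjusted p = 1.17e-13), 3.9 ± 0.11 in Pcgf-6KO (7.68e-14), 1.62 ± 0.11 in Pcgf-4KO (3.82e-09) and by 0.47 ± 0.11 in the double knockout (0.00127).

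Zscan4c followed the same order. It was listed at 0 in WT, at 12.54, 11.1 and 11.85 TPM in Ring1b-KO, at 8.04, 10.72 and 9.42 TPM in Pcgf-6KO and at 1.43, 1.5 and 1.95 TPM in Pcgf-4KO. In the double knockout it was at 0.09, 0.05 and 0.08 TPM, the lowest of which equalled the highest Ring1a-KO library. The rises were 3.68 ± 0.1 (adjusted p = 3.35e-13), 3.37 ± 0.1 (1.72e-13) and 1.39 ± 0.1 (9.72e-09) on the log2 scale. The double knockout was not called against WT (0.1 ± 0.1, adjusted p = 0.397). Zscan4d differed in that Pcgf-6KO (6.73, 6.32 and 6.66 TPM) overlapped Ring1b-KO (5.88, 6.1 and 6.56 TPM). It was at 0.84, 0.69 and 0.85 TPM in Pcgf-4KO, at 0.04 to 0.07 TPM in the double knockout and listed at 0 in WT. Its rises were 2.84 ± 0.08 in Ring1b-KO (adjusted p = 2.21e-13), 2.92 ± 0.08 in Pcgf-6KO (3.25e-14) and 0.84 ± 0.08 in Pcgf-4KO (1.01e-07).

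**Figure D1:**
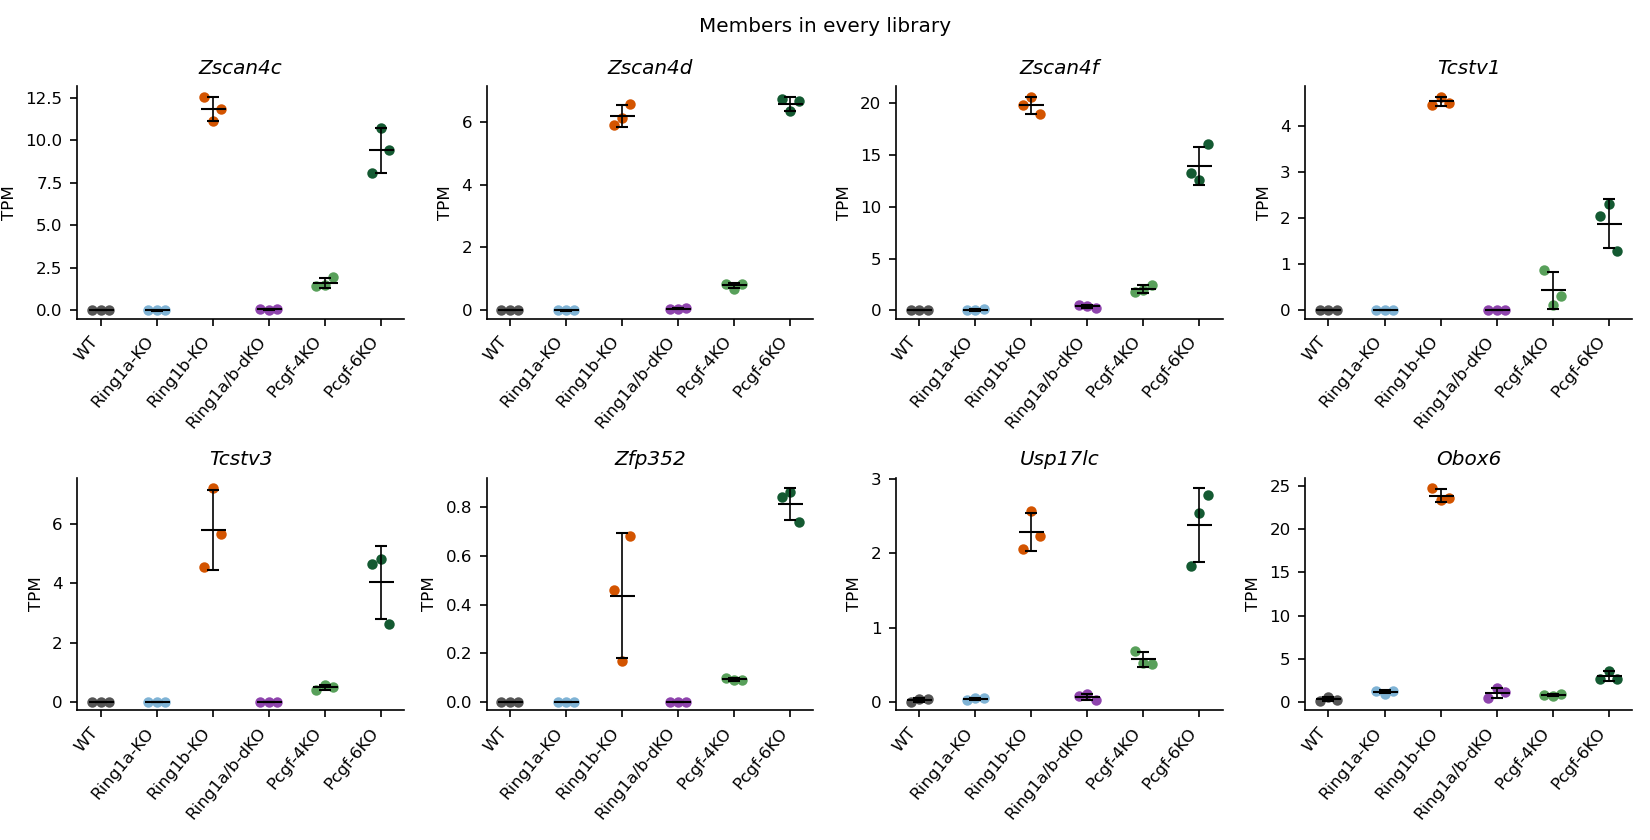
Level of each of the 8 genes (TPM, linear axis from 0, a scale of its own for each gene) in the 18 libraries. Points are libraries, and bars are the mean and SD of the 3 libraries of a group. Ring1b-KO and Pcgf-6KO stand above the other groups for all 8 genes. Obox6 is at 23.33 to 24.76 TPM in Ring1b-KO and 2.61 to 3.61 TPM in Pcgf-6KO, while Zscan4d, Zfp352 and Usp17lc have their highest mean in Pcgf-6KO.

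The other genes of the cluster had the same pattern. It holds 9 Zscan4 genes over 819.9 kb, and all 9 were called higher in Ring1b-KO, Pcgf-4KO and Pcgf-6KO, after passing the filter through those knockouts. Of all genes tested, 34.7%, 47.1% and 51.7% were called higher in these 3 groups. Their summed level was 0 to 0.1 TPM in WT, 75.0 to 77.3 TPM in Ring1b-KO, 54.4 to 59.9 TPM in Pcgf-6KO, 7.16 to 9.38 TPM in Pcgf-4KO and 0.61 to 1.03 TPM in the double knockout. Zscan4e was at 6.97, 9.18 and 8.97 TPM in Ring1b-KO and at 7.86, 8.44 and 10.38 TPM in Pcgf-6KO. Zscan4-ps2 was at 8.3, 9.24 and 9.26 TPM and at 7.28, 6.05 and 5.49 TPM in these groups. The mean of Pcgf-6KO as a ratio to that of Ring1b-KO ran from 0.334 for Zscan4a, at the end of the cluster, to 1.06 for Zscan4d and Zscan4e. Of 44 other annotated genes within the span, 42 stayed under 1 TPM in every library, and none of the 44 passed the filter. The copies share sequence, which limits what is known of each. Of the 100-base stretches of the annotated transcripts, 27.2% for Zscan4c, 70.4% for Zscan4d and 19.4% for Zscan4f occur in no other gene. Of the 50-base stretches 14.5%, 50.4% and 13.2% do. How reads were divided among the copies is not given in the sources used here, so the levels of Zscan4c and Zscan4f are uncertain relative to each other, and less so the sum.

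**Figure D2:**
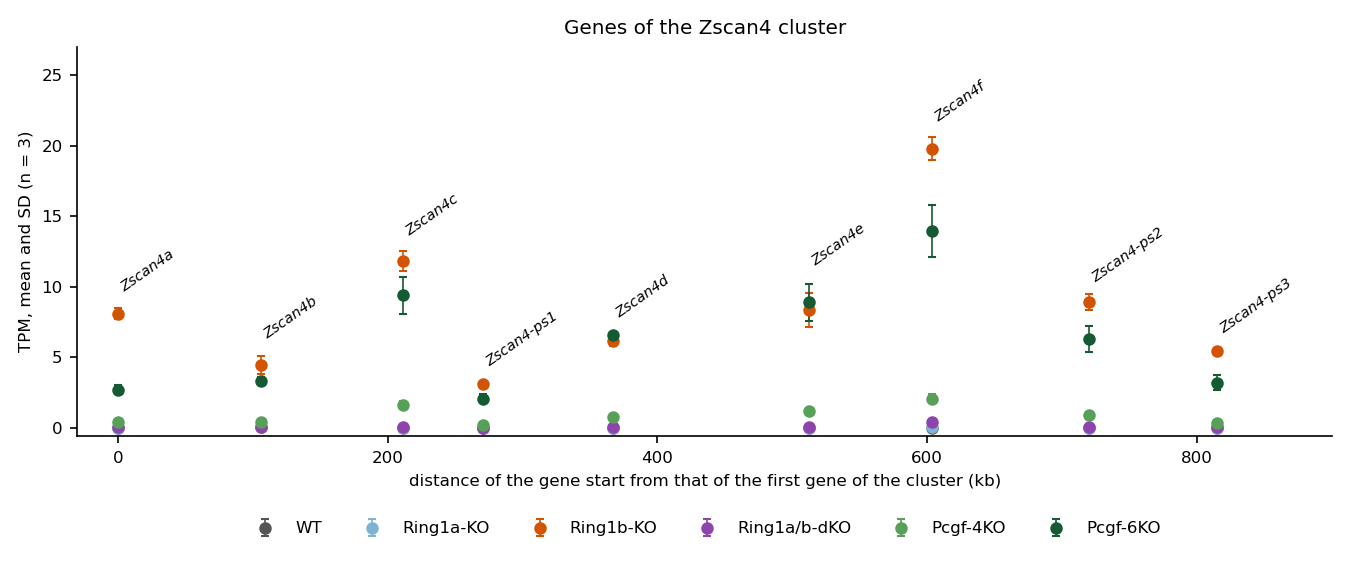
Mean TPM and SD (3 libraries) of the 9 genes of the Zscan4 cluster, by the distance in kb of each gene's lowest coordinate from that of Zscan4a. Ring1b-KO and Pcgf-6KO exceed the other groups at each of the 9 genes, and Zscan4f is highest, at a mean of 19.79 TPM in Ring1b-KO.

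Tcstv1 and Tcstv3 encode small proteins of the 2-cell embryo that are also known for a part in telomere maintenance. Tcstv1 lies on chromosome 13 at 119893388 to 119894785 (minus strand) and Tcstv3 at 120316878 to 120318178 (plus strand) of GRCm38. Most of their sequence is their own: 96.4% and 92.2% of their 100-base stretches occur in no other gene. Of their 50-base stretches 85.0% and 68.6% do. Both were listed at 0 in every library of WT, Ring1a-KO and the double knockout. Tcstv1 was at 4.47, 4.64 and 4.5 TPM in Ring1b-KO and at 2.06, 2.31 and 1.28 TPM in Pcgf-6KO, with no overlap. Tcstv3 was at 4.53, 7.2 and 5.65 TPM and at 4.65, 4.81 and 2.61 TPM, which overlapped. In Pcgf-4KO the libraries of Tcstv1 were far apart, at 0.88, 0.12 and 0.31 TPM, while those of Tcstv3 were at 0.4, 0.57 and 0.5 TPM.

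Against WT, Tcstv1 rose by 2.47 ± 0.16 in Ring1b-KO (adjusted p = 5.52e-09), 1.51 ± 0.16 in Pcgf-6KO (4.75e-07) and 0.49 ± 0.16 in Pcgf-4KO (0.0146). The last of these was lost without Pcgf-4KO replicate 1 (0.28, adjusted p = 0.089) and with only the groups compared (adjusted p = 0.0668). Tcstv3 rose by 2.75 ± 0.16 (1.93e-09), 2.3 ± 0.16 (3.94e-09) and 0.57 ± 0.16 (0.00579). The 7 genes of the family in the table, which include B020031M17Rik (6.59, 5.16 and 5.4 TPM in Ring1b-KO), summed to 18.5 to 22.0 TPM in Ring1b-KO, 11.8 to 16.8 TPM in Pcgf-6KO and 2.27 to 3.22 TPM in Pcgf-4KO. Within the 490.2 kb that hold 6 of them, 7 of 21 other genes were tested, 6 of which were called higher in Ring1b-KO and all 7 in Pcgf-6KO. Of all genes tested, 34.7% and 51.7% were called higher in these groups. The means of the 7 were 0 to 0.52 TPM in WT, so these counts too are in part set by the filter. Gm20767 and Gm21761 among them are also on the lists of 2-cell genes. The exception in Ring1b-KO was Gm21188, at a mean of 0.52 TPM in WT, 0 in Ring1b-KO and 1.86 TPM in Pcgf-6KO. By limma it was called lower in Ring1b-KO (adjusted p = 0.0157). These neighbours were named after their values had been seen.

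Zfp352, a zinc finger gene of the 2-cell embryo, lies on chromosome 4 at 90218820 to 90225702 (plus strand) and was the lowest of the 8. Its window (RefSeq, GRCm38.p6, chr4:90218570-90218819, plus strand) is shown because a short unit, GGACAACAC, in capitals, recurs in it with other bases between.
Zfp352: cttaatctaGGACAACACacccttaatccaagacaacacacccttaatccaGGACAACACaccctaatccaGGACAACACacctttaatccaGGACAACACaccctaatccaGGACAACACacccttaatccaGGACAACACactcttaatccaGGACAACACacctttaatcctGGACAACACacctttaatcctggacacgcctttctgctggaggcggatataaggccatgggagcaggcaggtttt

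The unit occurs 8 times in these 250 bases. On either strand it is in 0.141% of all windows, and this is the 1 window with 5 or more. The unit was noticed in the sequence itself. None of the 5 motifs searched in the Zscan4 windows was in this one. Zfp352 was listed at 0 in all libraries of WT, Ring1a-KO and the double knockout. It was at 0.84, 0.86 and 0.74 TPM in Pcgf-6KO, at 0.46, 0.17 and 0.68 TPM in Ring1b-KO and at 0.1, 0.09 and 0.09 TPM in Pcgf-4KO, and these 3 groups did not overlap. In the fit with no filter it rose by 0.86 ± 0.09 in Pcgf-6KO (adjusted p = 8.58e-07) and 0.51 ± 0.09 in Ring1b-KO (3.75e-04), and was not called in Pcgf-4KO (0.13 ± 0.09, adjusted p = 0.32). It was also higher in Pcgf-6KO than in Ring1b-KO (0.35 ± 0.09, adjusted p = 0.00414). Of its 100-base stretches 99.4% occur in no other gene.

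Usp17lc encodes a deubiquitinase of a multicopy family, on chromosome 7 at 103415072 to 103419880 (plus strand). It was at 0, 0.04 and 0.04 TPM in WT and at 0.03 to 0.11 TPM in Ring1a-KO and the double knockout, groups that overlapped. It was at 2.06, 2.57 and 2.23 TPM in Ring1b-KO and at 1.83, 2.54 and 2.78 TPM in Pcgf-6KO, which overlapped too, and at 0.69, 0.53 and 0.51 TPM in Pcgf-4KO. The rises against WT were 1.68 ± 0.11 in Ring1b-KO (adjusted p = 5.04e-09), 1.71 ± 0.11 in Pcgf-6KO (1.03e-09) and 0.62 ± 0.11 in Pcgf-4KO (1.20e-04). Pcgf-4KO reached 25.2% of the Ring1b-KO mean, the highest share among the 8 genes. The other 4 genes of the family were above Usp17lc in that share, at 30.0% to 46.2%. Usp17le was at 6.45, 6.6 and 8.7 TPM in Pcgf-6KO and at 2.71, 2.75 and 2.49 TPM in Ring1b-KO. The family summed to 15.8 to 20.4 TPM in Pcgf-6KO and 7.44 to 8.11 TPM in Ring1b-KO. For Usp17lc 67.7% of the 100-base stretches occur in no other gene, and 32.3% are shared with Usp17ld. Of its 50-base stretches these shares are 55.3% and 41.5%.

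Obox6, a homeobox gene of oocytes and early embryos, lies on chromosome 7 at 15833241 to 15839678 (minus strand), and none of its 100-base stretches occurs in another gene. It was the member with the highest level and stood apart from the other 7. In WT it was above 0 in every library, at 0.11, 0.56 and 0.26 TPM. Ring1b-KO was at 24.76, 23.33 and 23.6 TPM, while Pcgf-6KO was at 2.7, 3.61 and 2.61 TPM, or 0.124 times the Ring1b-KO mean. Ring1a-KO followed at 1.27, 0.96 and 1.32 TPM, the double knockout at 0.48, 1.62 and 1.12 TPM and Pcgf-4KO at 0.81, 0.71 and 0.94 TPM. Of these lower groups, Ring1a-KO and Pcgf-4KO did not overlap WT, while the double knockout did.

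Obox6 rose against WT by 4.26 ± 0.18 in Ring1b-KO (adjusted p = 3.10e-11), 1.61 ± 0.18 in Pcgf-6KO (7.09e-07) and 0.75 ± 0.18 in Ring1a-KO (0.00649). It was also called higher in the double knockout (0.64 ± 0.18, adjusted p = 0.00511) and in Pcgf-4KO (0.49 ± 0.18, adjusted p = 0.0246). The call in the double knockout was lost with quantile normalization (0.18, adjusted p = 0.38) and with only the groups compared (0.64, adjusted p = 0.0614). The call in Pcgf-4KO was lost with no filter (0.49), with median ratio scaling (0.39) and with quantile normalization (0.17). It was also lost without WT replicate 1 (0.37), WT replicate 3 (0.47), Pcgf-4KO replicate 1 (0.49) or Pcgf-4KO replicate 3 (0.44). Of the other 6 Obox genes in the table none passed the filter, and the family summed to 23.4 to 24.8 TPM in Ring1b-KO and 3.46 to 4.31 TPM in Pcgf-6KO. In the 1508.2 kb between the outermost Obox genes, pseudogenes of Obox4 had another order. Obox4-ps28, named after its values had been seen, had a mean of 10.59 TPM in Pcgf-6KO, 3.07 TPM in Ring1b-KO and 1.13 TPM in Pcgf-4KO.

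Across the comparisons with WT, limma called all 7 tested members higher in Ring1b-KO, where 34.7% of all genes were called higher. It called all 7 in Pcgf-6KO, against 51.7% of all genes, and all 7 in Pcgf-4KO, against 47.1%. It called 2 in the double knockout (Zscan4f and Obox6), against 48.6%, and 1 in Ring1a-KO (Obox6), against 12.3%. Since all 7 passed the filter through knockout libraries, their counts are in part set by it. Among 20246 genes under 1 TPM in all WT libraries, fitted with no filter, 12.8% were called higher in Ring1b-KO, 12.2% in Pcgf-4KO and 25.1% in Pcgf-6KO. In that fit the members called were 8 of 8, 6 of 8 (all but Obox6 and Zfp352) and 8 of 8. The shares of these WT-silent genes were 14.5% in the double knockout and 1.33% in Ring1a-KO, where 2 and 1 of the 8 members were called. The median difference of the 7 in the double knockout was 0.08, against 0.283 over all genes tested. In Ring1b-KO the median difference of the 7 was 2.84 against 0.132, in Pcgf-6KO 2.3 against 0.332 and in Pcgf-4KO 0.62 against 0.248. Most genes thus lay slightly above WT in these groups. After median ratio scaling the medians over all genes were -0.008, 0.026 and 0, the genes called higher fell to 26.5%, 38.2% and 32.6%, and none of the members called against WT reversed.

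**Figure D3:**
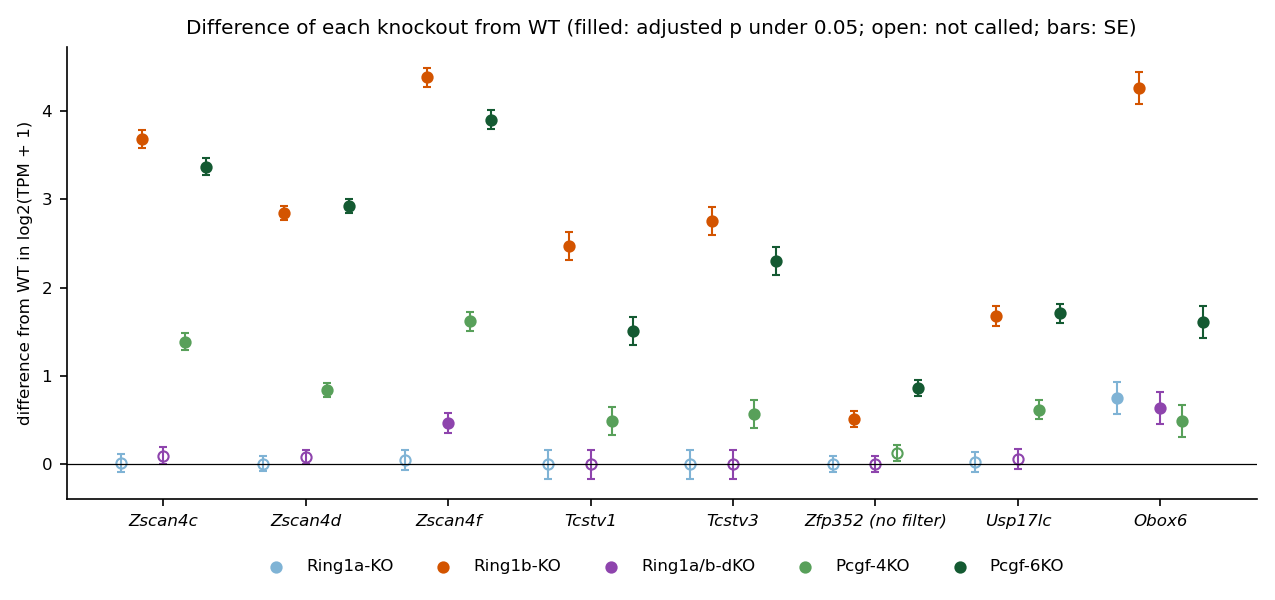
Difference from WT in log2(TPM + 1), with SE, of the 8 genes in the 5 knockout groups. Filled points were called by limma and open points were not, and Zfp352 is from the fit with no filter. For the Zscan4 genes Ring1b-KO and Pcgf-6KO lie between 2.84 and 4.38, Pcgf-4KO between 0.84 and 1.62, and the double knockout between 0.08 and 0.47.

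The double knockout and Ring1b-KO differ by the deletion of Ring1a in their labels. All 7 tested members were lower in the double knockout, where 18.8% of all genes were called lower. Its mean was between 0% of the Ring1b-KO mean (Tcstv1, Tcstv3 and Zfp352, listed at 0) and 4.49% (Obox6). Zscan4f, at 0.39 against 19.79 TPM, was lower by 3.9 ± 0.11 on the log2 scale (adjusted p = 4.22e-13), and Usp17lc, at 0.07 against 2.29 TPM, by 1.61 ± 0.11 (6.85e-09). The interaction term is what the double knockout lacks or adds beyond the sum of both single knockouts on the log2 scale. It was negative for all 7 members, from -1.64 ± 0.15 for Usp17lc (adjusted p = 5.09e-07) to -4.37 ± 0.25 for Obox6 (3.12e-09), and 15.5% of all genes had a negative term that was called. The members were low in WT, Ring1a-KO and the double knockout, so the term largely restates their rise in Ring1b-KO. For Tcstv1 the term was -2.47 and the rise 2.47. The labels do not say whether the single and the double knockout were made in the same parent cells or for the same time, so genotype and line cannot be told apart.

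Pcgf-4KO and Ring1b-KO shared the direction from WT but not the size. All 7 tested members were lower in Pcgf-4KO than in Ring1b-KO, where 21.5% of all genes were. The Pcgf-4KO mean was 3.43% (Obox6) to 25.2% (Usp17lc) of the Ring1b-KO mean over the 8 genes. Pcgf-6KO differs from Pcgf-4KO in its label by Pcgf2 and Pcgf4. Pcgf2 was at 15.38 to 17.91 TPM in Pcgf-6KO and 53.26 to 57.51 TPM in Pcgf-4KO, while Bmi1, which encodes Pcgf4, was not lower, at 14.34 to 16.32 TPM against 8.99 to 13.83 TPM. All 7 tested members were higher in Pcgf-6KO, where 28.8% of all genes were. The ratio of the means ran from 3.63 for Obox6 to 8.71 for Zfp352. Zscan4d, at 6.57 against 0.79 TPM, was higher by 2.08 ± 0.08 (adjusted p = 1.51e-11), and Tcstv3, at 4.02 against 0.49 TPM, by 1.72 ± 0.16 (4.17e-07). The level of Pcgf6 itself was also higher in Pcgf-6KO, at 9.73 to 11.15 TPM against 0 to 0.1 TPM in Pcgf-4KO. Against the double knockout, all 7 were higher in Pcgf-6KO, where 28.3% of all genes were, with differences from 0.97 ± 0.18 for Obox6 (adjusted p = 2.48e-04) to 3.42 ± 0.11 for Zscan4f (2.76e-12).

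Pcgf-6KO and Ring1b-KO were then set against each other, a comparison chosen after the values had been seen. Called lower in Pcgf-6KO were 7 of the 9 Zscan4 genes, 3 of the 5 tested Tcstv genes and Obox6, and called higher were 4 of the 5 Usp17l genes. Of all genes tested, 25.7% were called lower and 42.2% higher. Of the 7 tested members 5 were lower, where 25.7% of all genes were: Obox6 by 2.66 ± 0.18 (adjusted p = 3.11e-09), Tcstv1 by 0.96 ± 0.16 (7.51e-05), Zscan4f by 0.48 ± 0.11 (0.00105), Tcstv3 by 0.45 ± 0.16 (0.0228) and Zscan4c by 0.31 ± 0.1 (0.0131). With a pseudocount of 0.1 TPM only Obox6 and Tcstv1 were called. Zscan4c was not called without Ring1b-KO replicate 1 (-0.27) or Pcgf-6KO replicate 1 (-0.21), nor Tcstv3 without Ring1b-KO replicate 2 (-0.3) or Pcgf-6KO replicate 3 (-0.23). Zscan4d (0.08 ± 0.08, adjusted p = 0.378) and Usp17lc (0.03 ± 0.11, adjusted p = 0.795) were not called. Of the 5 Usp17l genes 4 were higher in Pcgf-6KO, with means 2.07 to 3.22 times those in Ring1b-KO. Usp17le was higher by 1.17 ± 0.11 (adjusted p = 1.26e-07), Usp17lb by 1.07 ± 0.12 (1.34e-06) and Usp17la by 0.99 ± 0.11 (1.21e-06). The 4 of 5 held with median ratio scaling and quantile normalization, where 34.6% and 32.6% of all genes were called higher.

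**Figure D4:**
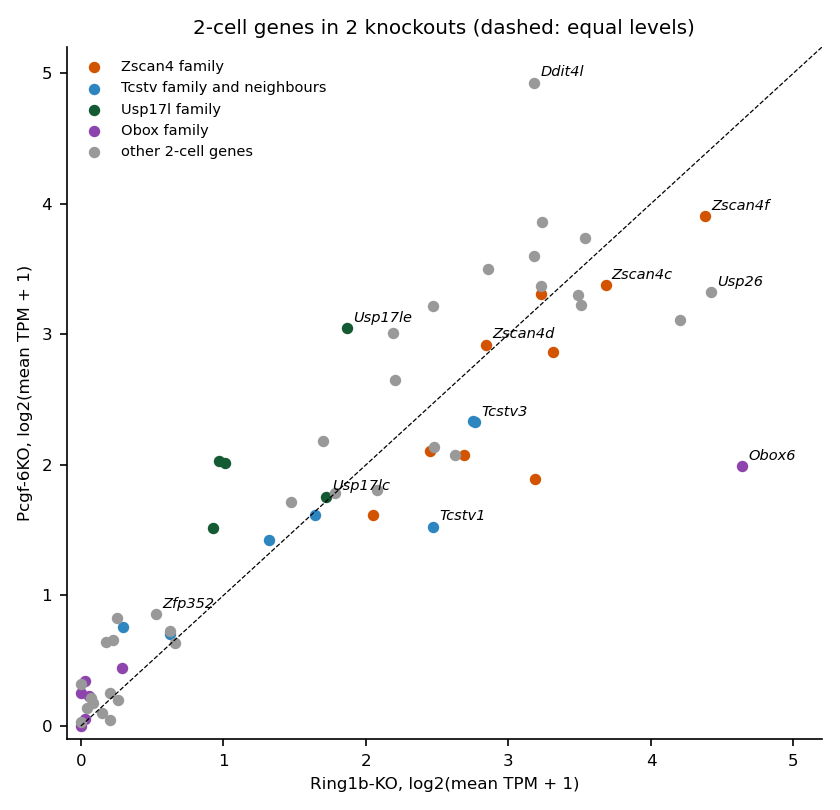
Mean level in Pcgf-6KO against that in Ring1b-KO, as log2(mean TPM + 1), for the genes of the 2-cell lists. Each point is a gene, the dashed line marks equal levels, and members and a few list genes are labelled. Usp17l genes lie on or above the line, Obox6 far below it and 7 of the 9 Zscan4 genes below it.

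The wider set of 2-cell genes moved with the members. Of 54 such genes in the table that are no members, 32 were tested. Of these, 31 were called higher and 1 lower in Ring1b-KO, 31 and 1 in Pcgf-6KO, 27 and 1 in Pcgf-4KO, 4 and 1 in the double knockout and 1 and 0 in Ring1a-KO. Of all genes tested, 34.7%, 51.7%, 47.1%, 48.6% and 12.3% were called higher in the same order, and 17.1%, 22.5%, 17.9%, 15.8% and 10.8% lower. Only 2 of the 32 were at 1 TPM or more in WT, so the counts of rises too are in part set by the filter. The medians of their differences were 2.43, 2.24, 0.69, 0.06 and 0, on the same scale. The exception in the 4 knockouts with a fall was Usp26, an X-linked relative of the deubiquitinases, with 32.2 to 34.31 TPM in WT, 20.05 to 21.03 TPM in Ring1b-KO, 7.63 to 10.84 TPM in Pcgf-6KO and 2.59 to 2.77 TPM in Pcgf-4KO. Ddit4l, a stress-induced regulator of growth signalling, was expressed in WT too, at 3.72 to 4.16 TPM. It rose in every group but Ring1a-KO, to 24.77, 26.87 and 36.64 TPM in Pcgf-6KO and 11.25, 8.88 and 11.82 TPM in the double knockout. Gm5662 had the pattern of the members, at 16.62 to 18.12 TPM in Ring1b-KO, 7.08 to 8.06 TPM in Pcgf-6KO, 1.99 to 2.93 TPM in Pcgf-4KO and 0 to 0.04 TPM in WT. Gm6763 was listed at 0 in Ring1b-KO replicate 1 and Pcgf-4KO replicate 1, beside 9.45 and 15.88 TPM in the other Ring1b-KO libraries, so a value of 0 in a single library may not mean that the gene was silent there.

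The mean profile of the 7 tested members over the 18 libraries was used to find the genes most like it, by Pearson's r on log2(TPM + 1). The libraries fall into 6 groups, so r mostly reflects group means. The 6 most alike were Gm11543 (0.995), Gm21319 (0.991), Gm13078 (0.991), Gm11546 (0.99), Gm13696 (0.986) and Gm21818 (0.983), and 95 of 17842 genes were over 0.95. Gm11543, an unprocessed pseudogene on chromosome 11, was listed at 0 in WT and Ring1a-KO. It was at 10.94 to 12.37 TPM in Ring1b-KO, 5.24 to 6.09 TPM in Pcgf-6KO, 0.49 to 0.87 TPM in Pcgf-4KO and 0 to 0.26 TPM in the double knockout. Gm21818, on chromosome 13 among the Tcstv genes, was at 6.38 to 7.22 TPM in Ring1b-KO and 3.48 to 4.91 TPM in Pcgf-6KO. It shares 11.8% of the 50-base stretches of Tcstv1 and 19.0% of those of Tcstv3. Among the members, r with the mean of the others was 0.972 to 0.986 for the Zscan4 genes, Tcstv1, Tcstv3 and Usp17lc, 0.852 for Zfp352 and 0.836 for Obox6.

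Known inducers of the 2-cell-like state did not move as 1 group. Duxf3, the Dux gene of the annotation and the factor that can switch the state on, had the pattern of the members. It was at 0.03, 0 and 0 TPM in WT and listed at 0 in Ring1a-KO. It was at 1.18, 2.27 and 1.69 TPM in Ring1b-KO and 1.34, 1.58 and 2.2 TPM in Pcgf-6KO, against 0.14, 0.05 and 0 TPM in the double knockout. It rose by 1.41 ± 0.14 in both (adjusted p = 6.78e-07 in Ring1b-KO and 2.27e-07 in Pcgf-6KO). In Pcgf-4KO it was at 0.14, 0.19 and 0.31 TPM and was not called (0.26 ± 0.14, adjusted p = 0.115). Dppa2, an activator of Dux, rose in all 5 knockouts (in Ring1a-KO not with only the groups compared, adjusted p = 0.0583). It was highest in the double knockout, where it was at 208.37, 202.4 and 198.37 TPM against 82.05, 86.25 and 82.29 TPM in WT (1.27 ± 0.05, adjusted p = 5.85e-12). Its partner Dppa4 rose in Ring1a-KO (0.28 ± 0.04, adjusted p = 7.54e-05) and fell in Ring1b-KO (-0.4 ± 0.04, adjusted p = 3.48e-07), Pcgf-4KO (-0.32 ± 0.04, 2.10e-06) and Pcgf-6KO (-0.67 ± 0.04, 2.96e-10), and its rise in the double knockout (0.2 ± 0.04, 2.17e-04) turned to -0.16 with median ratio scaling. Of the 7 inducers tested, 4 rose and 3 fell in Ring1b-KO, 4 and 2 in Pcgf-6KO, 4 and 1 in Pcgf-4KO and 2 and 2 in the double knockout. Of all genes, 34.7%, 51.7%, 47.1% and 48.6% rose and 17.1%, 22.5%, 17.9% and 15.8% fell in the same order. In Pcgf-6KO and Pcgf-4KO 4 of 7 is close to the shares of all genes that rose. With median ratio scaling the counts became 3 and 3, 2 and 4, 1 and 3, and 1 and 5. The shares of all genes were then 26.5%, 38.2%, 32.6% and 32.5% for rises and 28.1%, 35.8%, 32.4% and 32.2% for falls.

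Among 18 genes known to hold the state in check, each tested and expressed in WT, 13 fell and 1 rose in Pcgf-6KO, with a median difference of -0.71, where 22.5% of all genes fell and 51.7% rose. The counts were 9 and 3 in Ring1b-KO (17.1% and 34.7% of all genes), 8 and 4 in Pcgf-4KO (17.9% and 47.1%) and 7 and 3 in the double knockout (15.8% and 48.6%), while 2 fell and 5 rose in Ring1a-KO (10.8% and 12.3%). With median ratio scaling 17, 14, 15 and 17 of the 18 fell in Pcgf-6KO, Ring1b-KO, Pcgf-4KO and the double knockout, against 35.8%, 28.1%, 32.4% and 32.2% of all genes. Trim28, a corepressor that silences retroviral elements, was at 1244.48, 1261.93 and 1281.32 TPM in WT and at 533.97, 546.08 and 571.16 TPM in Pcgf-6KO (-1.2 ± 0.05, adjusted p = 9.07e-12). It was at 689.66 to 753.5 TPM in the double knockout and at 997.09 to 1046.16 TPM in Ring1b-KO (-0.3 ± 0.05, adjusted p = 1.54e-04, and -0.15, adjusted p = 0.0573, with quantile normalization). The part of Trim28 and the other repressors in the levels of the members was not tested. Lin28a, an RNA-binding protein, fell in the same 4 groups, from 177.74 to 180.35 TPM in WT to 61.08 to 66.06 TPM in Pcgf-6KO and 105.29 to 112.83 TPM in Ring1b-KO. Uhrf1, needed to copy DNA methylation, fell in Pcgf-6KO, to 60.55, 71.86 and 82.13 TPM from 173.7 to 179.82 TPM (-1.31 ± 0.07, adjusted p = 2.64e-10). It was not called in the other 4 knockouts.

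**Figure D5:**
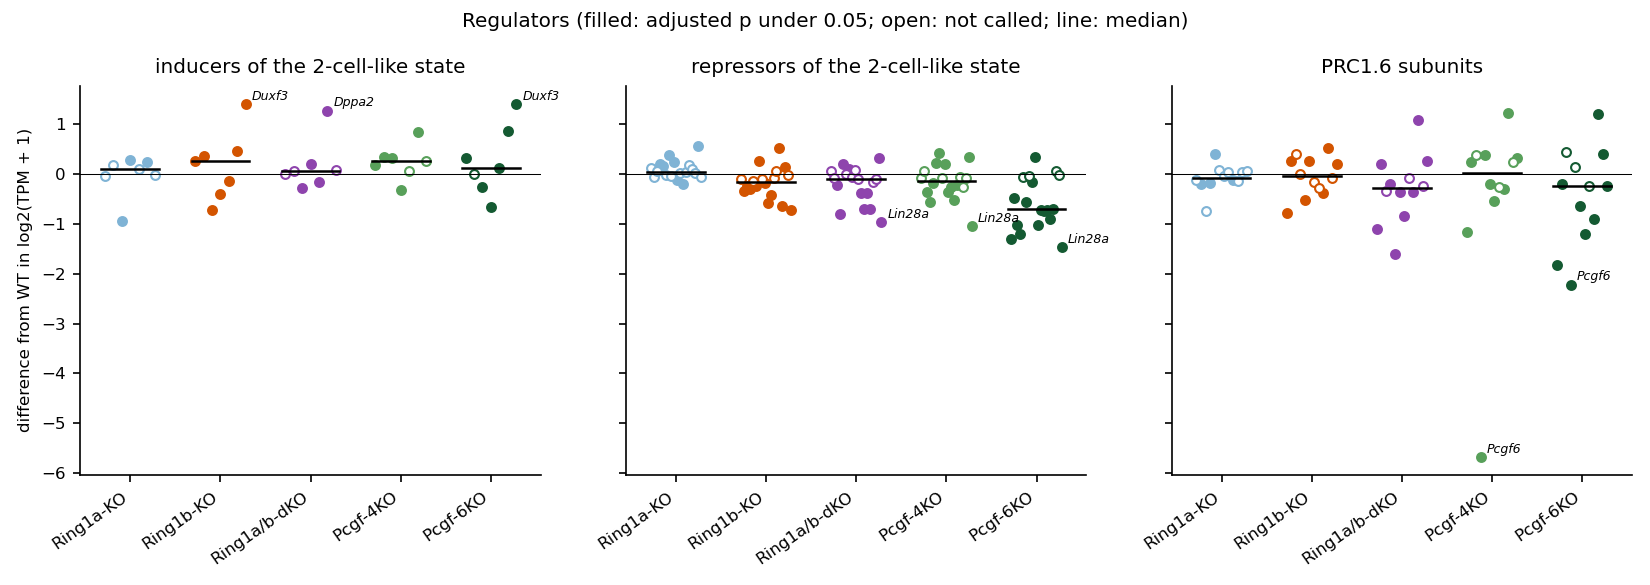
Difference from WT in log2(TPM + 1) of the tested inducers (7 genes), repressors (18 genes) and subunits of the Pcgf6 complex (12 genes) in the 5 knockout groups. Each point is a gene, filled where limma called it, and lines are medians. The median of the repressors is -0.71 in Pcgf-6KO and -0.16 in Ring1b-KO. Pcgf6 stands apart at -5.68 in Pcgf-4KO, where it is a target.

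Of 12 subunits of the Pcgf6 complex, all tested, 4 rose and 3 fell in Ring1b-KO, 2 and 7 in Pcgf-6KO, 4 and 5 in Pcgf-4KO and 3 and 6 in the double knockout. Of all genes, 34.7%, 51.7%, 47.1% and 48.6% rose and 17.1%, 22.5%, 17.9% and 15.8% fell, so the 4 of 12 that rose in Ring1b-KO are close to the share of all genes. With median ratio scaling the falls were 7, 9, 7 and 10, against 28.1%, 35.8%, 32.4% and 32.2% of all genes. The list holds Pcgf6, Rnf2 and Ring1, so the falls include genes targeted in the group itself. These were Pcgf6 in Pcgf-4KO (-5.68) and Pcgf-6KO (-2.22) and Rnf2 in Ring1b-KO (-0.52) and the double knockout (-1.61) in the main fit. Pcgf6 was at 51.96 to 54.81 TPM in Ring1b-KO, a range that spans WT (0.01 ± 0.06, adjusted p = 0.944). Cbx1, a chromodomain protein that binds methylated histones, fell in these 4 groups, from 400.42 to 437.7 TPM in WT to 234.54 to 254.17 TPM in Ring1b-KO and 112.12 to 124.94 TPM in Pcgf-6KO. Cbx3, a paralogue of Cbx1, fell in 3 of them and was not called in Ring1b-KO (-0.16 ± 0.07, adjusted p = 0.0958).

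Genes of the oocyte, which are transcribed before the 2-cell stage, were compared as well. Of 23 such genes listed, 9 were tested and 4 reached 1 TPM in WT. In Ring1b-KO 8 rose and 0 fell, in Pcgf-6KO 5 and 3, in the double knockout 5 and 2, in Pcgf-4KO 6 and 1 and in Ring1a-KO 3 and 1. The shares of all genes that rose were 34.7%, 51.7%, 48.6%, 47.1% and 12.3%, so 5 of 9 in Pcgf-6KO and the double knockout is close to them. Those that fell were 17.1%, 22.5%, 15.8%, 17.9% and 10.8%. With median ratio scaling the counts were 8 and 1, 4 and 3, 5 and 3, 4 and 2, and 3 and 1. Ooep, a part of the maternal complex under the egg's membrane, was at 48.4, 52.54 and 51.57 TPM in Ring1b-KO against 13, 12.02 and 10.54 TPM in WT, a rise of 2.02 ± 0.07 (adjusted p = 6.04e-12). In Pcgf-6KO, at 8.47, 7.7 and 7.83 TPM, it fell by 0.51 ± 0.07 (1.14e-05). Khdc3, of the same complex, likewise rose in Ring1b-KO (1.32 ± 0.09, adjusted p = 6.16e-09) and fell in Pcgf-6KO (-1.72 ± 0.09, 7.64e-11). Npm2, a histone chaperone of the egg, rose in both, by 2.13 ± 0.17 in Ring1b-KO (adjusted p = 6.13e-08) and 1.29 ± 0.17 in Pcgf-6KO (5.25e-06). Figla, a transcription factor of oocytes, was at 2.94, 3.78 and 4.64 TPM in the double knockout, where the 8 members summed to 1.23 to 2.23 TPM, against 0.24, 0.12 and 0 TPM in WT (2.09 ± 0.19, adjusted p = 1.51e-07).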

How the data were processed

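Total RNA of 18 libraries in 6 groups was sequenced after TruSeq preparation, per the labels' protocols. The authors deposited TPM for 56551 genes with a mean column for each of the 6 groups. Those means were not used. Per the submitters' processing notes, the tools were RSEM, TopHat2 2.1.1 and edgeR and the build was GRCm38.p5, with no role given for each tool, and the annotation release is not given in the sources used here. TPM holds no depth, so no counting interval is given.

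Gene symbols and coordinates are those of GENCODE for GRCm38 (55141 genes matched). The filter kept genes reaching 1 TPM in 3 or more libraries, and log2(TPM + 1), which understates changes of low genes, was fitted with 1 mean per group over all 18 libraries in limma 3.58.1 (R 4.3.3, 12 residual degrees of freedom, trended empirical Bayes), after a check on simulated data. Tests were two-sided, adjusted by Benjamini-Hochberg within each of 11 comparisons, and called at an adjusted p under 0.05. Comparisons with a common group share its libraries, so they are not independent. Group sums, ratios and ranges are from TPM.

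The members, lists, tests and motifs were chosen with earlier results of these data known. The genes named are the 8 members and up to 4 per list (the 2 with the highest mean and the 2 with the largest called difference from WT). Also named are the 6 most like the members' mean profile, among genes with a symbol outside the 2-cell lists. Zscan4a, Zscan4b, Usp17ld, cluster neighbours and marker genes of other cell types fall outside this rule and were named after their values were seen. Promoter windows were in RefSeq for 5 of the 8 members. Alternatives were another pseudocount, no filter, median ratio scaling, quantile normalization, a replicate block, only the groups compared, and each library left out.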

Additional observations from a re-analysis of the deposited data

Results flagged for a closer look

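The interaction term of the limma fit was negative and called for all 7 tested members, where 15.5% of all genes had such a term. All 7 passed the filter through knockout libraries. They were low in WT, Ring1a-KO and the double knockout, so the term largely restates their rise in Ring1b-KO. Genotype and line cannot be told apart. On the log2(TPM + 1) scale the term was -3.6 for Zscan4c (adjusted p = 6.26e-11), -2.78 for Zscan4d (4.37e-11) and -3.95 for Zscan4f (5.03e-11). It was -2.47 for Tcstv1 (4.51e-07) and -2.75 for Tcstv3 (1.72e-07), both listed at 0 in the double knockout. It was -1.64 for Usp17lc (5.09e-07) and -4.37 for Obox6 (3.12e-09). In each case the 3 Ring1b-KO libraries lay above the 3 double knockout libraries with no overlap.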

How the results depend on the processing

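Of 64 values of single members that were called, recomputed in 810 cases under the alternatives, 790 kept their direction and their side of the threshold, 20 kept their direction and were no longer called (9 of them with a library left out), and 0 reversed. The count of members called in the double knockout against WT was 2, and became 4 with a pseudocount of 0.1 TPM, 1 with quantile normalization and 1 with only the groups compared. In Pcgf-6KO against Ring1b-KO it was 5, and became 2 with a pseudocount of 0.1 TPM and 3 with only the groups compared. The cause was not tested. With a library left out, the counts ranged from 5 to 7 in Pcgf-4KO against WT and from 4 to 5 in Pcgf-6KO against Ring1b-KO, and stayed as reported in the other comparisons. With the replicate block the counts were 1, 7, 2, 7 and 7 against WT in the order of the groups, 5 in Pcgf-6KO against Ring1b-KO and 7 in the others. Of 45 correlations between the deviations of libraries with the same replicate number, 0 were over 0.1 (from -0.109 to 0.0714). Weak correlations cannot tell whether such libraries shared a culture day or a batch. Of the genes called against WT the share that was higher fell with median ratio scaling from 67.0% to 48.5% in Ring1b-KO, from 75.5% to 50.2% in the double knockout, from 72.5% to 50.1% in Pcgf-4KO and from 69.6% to 51.6% in Pcgf-6KO. Obox6 in Pcgf-4KO had an adjusted p from 0.00666 to 0.42 over its alternatives, Tcstv1 there from 3.33e-04 to 0.089, and Obox6 in the double knockout from 2.12e-04 to 0.38. Unknown depth limits every value under 1 TPM.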
